A study of Mus musculus with 9 samples.

Results

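The regions described here are stretches of mouse sequence that were methylated in adult tail-tip fibroblasts and whose CpG spacing was found once in the data. A run was defined as 5 neighbouring CpGs no more than 60 bp apart from one to the next, and its spacing as the 4 gaps between them, read in either direction. Of 472924 runs, 124232 had a spacing that occurred once and 121566 of these lay on autosomes. With at least 10 calls in each of the 8 samples, 115441 autosomal runs of unique spacing remained, and 11890 of them (10.3%) had a mean level of 60% or more in fibroblasts. These 11890 runs, out of 439159 of any spacing and level with enough calls, are the set described. Where runs shared a CpG they were joined, which gave 6406 regions holding 38240 CpGs, 3552 of them made of 1 run. Because the fibroblast mean chose the runs, their fibroblast levels are a description, and so is any comparison made on the same runs with the same fibroblasts.

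The tested material was embryos made by nuclear transfer (NT embryos, label NTZy14). An adult male tail-tip fibroblast nucleus was placed in an enucleated C57/B6 oocyte, which was then activated with strontium chloride and kept in culture. The comparison material was such fibroblasts themselves (label TT), grown to confluence. NT embryo samples 1 and 2 and fibroblast samples 1 and 2 carry the strain label BDF1-CAST, and samples 3 and 4 of each carry X1. What X1 and the digits in NTZy14 stand for is not given in the sources used here, and neither is the number of embryos in a sample or whether samples came from separate animals or cultures. A p-value here therefore speaks only of the scatter among these samples, and that scatter may be technical. NT embryo libraries held 25239364 to 30396273 calls and fibroblast libraries 35442175 to 41466097 calls.

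A CpG is a cytosine followed by guanine, and in mammals most such cytosines outside CpG islands carry a methyl group that is copied to the new strand at each division. After fertilization much of this methylation is lost before implantation, by oxidation of the mark and by dilution over cell divisions, and it is restored later. Nuclear transfer exposes a somatic genome to the same egg cytoplasm. Reduced representation bisulfite sequencing reads the mark at CpGs near MspI sites, with unmethylated cytosines converted to thymine. Copies of a transposable element keep the CpG spacing of their ancestor, so a spacing found once is less likely to belong to an abundant repeat, although old and diverged copies can also be unique.

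The sequence of a run can be read only where a reference holds it. The files use mouse build mm9, for which no genome or annotation was used here, so position relative to genes is not given for most runs. Their gaps could be searched in the promoter sequences of RefSeq, build GRCm38.p6, from 250 bases before to 50 after each start. In all, 38 members in 18 regions matched exactly 1 promoter place on the same chromosome with the shift in position seen at 3 or more loci there, and these 18 regions were assigned to the promoters of 17 genes, 1 of them also matching the promoter of 4930467D21Rik. The assignment is inferred from spacing and not from converted coordinates, and each value given for a gene rests on it. The sequences below, from RefSeq on build GRCm38.p6 and written 5′ to 3′ on the strand of the gene with CpGs in capitals, show what such runs look like upstream of a start. They are shown because they cover germ-line genes (Hormad1, Dmrtb1, Rpl39l), a hormone gene (Lep), the promoter with the widest spread among NT embryo samples (Plekhg4) and the one with the largest fall (Gm51661).
Hormad1, chr3:95559429-95559560, plus strand: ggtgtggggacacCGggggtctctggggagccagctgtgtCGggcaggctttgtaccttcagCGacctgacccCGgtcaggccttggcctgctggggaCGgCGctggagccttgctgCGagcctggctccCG
Dmrtb1, chr4:107683724-107683819, minus strand: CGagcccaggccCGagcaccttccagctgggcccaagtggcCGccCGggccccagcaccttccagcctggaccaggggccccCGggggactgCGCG
Rpl39l, chr16:10170098-10170157, plus strand: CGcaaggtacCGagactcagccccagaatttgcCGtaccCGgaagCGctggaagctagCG
Lep, chr6:29060136-29060220, plus strand: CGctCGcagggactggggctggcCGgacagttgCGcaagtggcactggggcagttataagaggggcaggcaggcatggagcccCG
Plekhg4, chr8:105374991-105375082, plus strand: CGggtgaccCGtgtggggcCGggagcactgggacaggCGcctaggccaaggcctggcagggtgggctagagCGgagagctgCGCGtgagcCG
Gm51661, chr9:121454302-121454365, minus strand: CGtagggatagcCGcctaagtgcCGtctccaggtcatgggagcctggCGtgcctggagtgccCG

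Methylation of these runs was lower in every NT embryo sample than in every fibroblast sample, and the loss was partial. The mean level over the 11890 runs was 56.9%, 56.7%, 68.6% and 64.0% in NT embryo samples 1 to 4, against 80.4%, 78.5%, 83.7% and 82.7% in fibroblast samples 1 to 4. That is 61.6 ± 5.80% in NT embryos and 81.3 ± 2.32% in fibroblasts (SD, n = 4 each). The share of runs at 80% or more was 24.9 ± 11.3% in NT embryos and 60.6 ± 8.36% in fibroblasts. Runs under 20% made up 7.86%, 5.63%, 3.42% and 6.61% of the set in NT embryo samples 1 to 4, and the choice of runs left none of the fibroblast samples with any. Few runs therefore reached the bottom of the scale. Runs at 20% to under 60% made up 41.5%, 45.6%, 25.9% and 30.7% of the set in NT embryo samples 1 to 4. Per run, the NT embryo mean minus the fibroblast mean had a median of -17.3 percentage points, with quartiles at -31.9 and -5.49 and a range of -81.6 to 22.8.

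**Figure D1:**
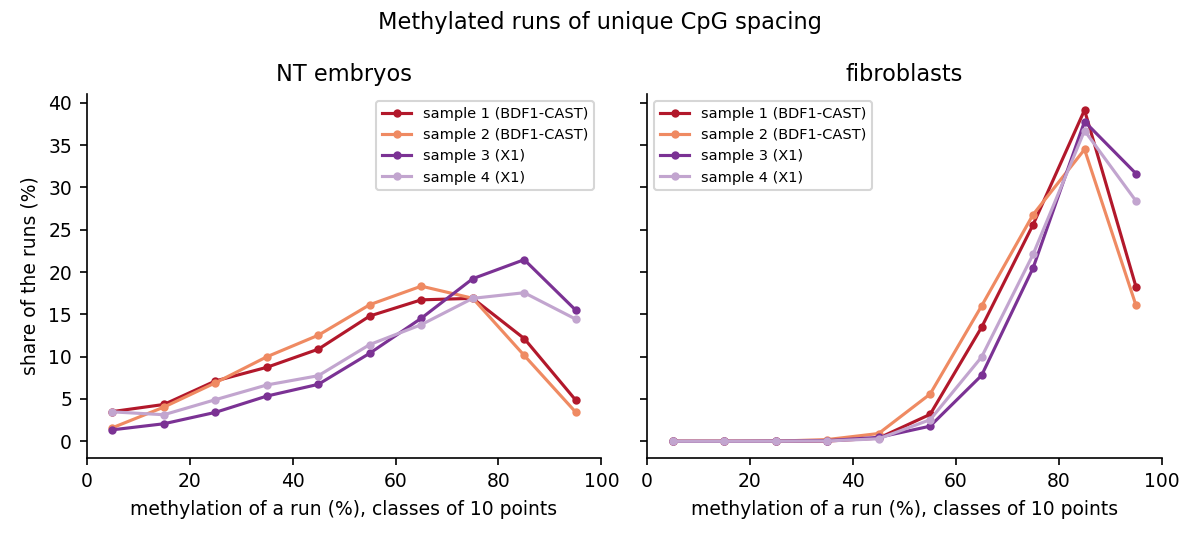
Histograms of methylation level (percent, horizontal axis) over the 11890 runs, as a share of runs (percent, vertical axis), with 1 line for each of the 4 NT embryo samples and the 4 fibroblast samples. The NT embryo lines spread over the whole scale with 3.42 to 7.86% of runs under 20%, while the fibroblast lines crowd at the upper end, where the choice of runs places them.

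Behind a single level stood a median of 61, 63, 58 and 44 calls per run in NT embryo samples 1 to 4, against 224, 109, 91 and 96 in fibroblast samples 1 to 4. With 61 calls a level of 60.7% has a Wilson 95% interval of 48.1 to 71.9%, and with 224 calls a level of 59.8% has one of 53.3 to 66.0%. These intervals cover counting error only, and they treat calls as independent. A read can give calls at several CpGs of a run, and reads carried no molecular identifiers. The true uncertainty can therefore be wider. Levels of a run also scattered more among NT embryo samples, with a median SD of 14.4 points, against 4.77 points among fibroblast samples. The part of the lower call number in this wider scatter was not tested.

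Runs were then sorted by the NT embryo mean alone into those that kept methylation (60% or more), those in between (20% to under 60%) and those that lost it (under 20%). Of the 11890 runs, 6707 (56.4%) kept methylation, 5049 (42.5%) were intermediate and 134 (1.13%) in 100 regions lost it. Of the 6707 kept runs, 3400 (28.6% of all members) were at 60% or more in every NT embryo sample, and 529 (4.45% of all members) were at 80% or more in every one. At the other end, 1444 runs (12.1%) were under 60% in every NT embryo sample and 20 runs were under 20% in every one. The NT embryo mean lay above the fibroblast mean in 1437 runs (12.1%). All 4 NT embryo samples lay below all 4 fibroblast samples in 4134 runs (34.8%), against 5.6% of all 439159 runs tested, and all 4 lay above in 51. Since fibroblast levels of 60% or more chose the runs, nothing is read from that contrast with the background.

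The groups differed little in shape. Runs that kept methylation had a median length of 82 bp from first to last CpG, intermediate ones 79 bp and runs that lost it 76 bp, and the medians of CpGs within 500 bp were 11, 10 and 10 in the same order. Mean fibroblast levels were 82.7%, 79.7% and 73.6% in that order, so the few runs that ended lowest had also started lower. Calls summed over the NT embryo samples had medians of 255, 215 and 186 in that order. The part of call number in the sorting was not tested. Spread among NT embryo samples was widest in the intermediate runs, with a median SD of 18.8 points, against 11.4 points in runs that kept methylation and 11.9 points in runs that lost it. The sorting by the mean of the same samples favours this order. A run with both high and low samples falls in the middle class, and levels near either end of the scale have less room to vary. With calls summed over the samples of a stage, 121 lost runs had 10 calls or more at each CpG in each stage, and of these 15 had all 5 CpGs under 20% in NT embryos. Of 6098 kept runs with such calls, 2333 had all 5 CpGs at 60% or more.

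To keep a sample's own level out of the choice, the change was tested on runs that other samples chose. For samples of 1 strain, runs of unique spacing were taken where the fibroblasts of the other strain had 60% or more, which gave 12112 runs for BDF1-CAST and 11548 for X1. The mean level of those runs was 56.3%, 56.1%, 68.5% and 64.0% in NT embryo samples 1 to 4, against 79.4%, 77.4%, 83.5% and 82.7% in fibroblast samples 1 to 4. The groups did not overlap. NT embryos averaged 61.2 ± 6.07% and fibroblasts 80.8 ± 2.87% (SD, n = 4 each), a difference of -19.6 points with p = 0.0286 by a two-sided exact permutation test. This p is the smallest that the 70 assignments of 4 against 4 can give, and it stayed 0.0286 after Benjamini-Hochberg adjustment over the 4 such tests made. The choice still asked for high fibroblast levels, and fibroblast samples of different strain correlated at r = 0.566 to 0.666 over the regions. A lower level in NT embryos was therefore favoured by the choice, so the direction of this difference is not independent of it. The change was -16.9 points in the X1 samples and -22.2 in the BDF1-CAST ones, and the gap between strains was not tested on this mean.

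Runs that started higher changed more. Classed by the fibroblasts of the other strain, runs that started at 90% or more differed by -27.1 ± 2.92 points in NT embryos, those from 80% to under 90% by -19.6 ± 2.87, and those that started in the lowest class, from 60%, by -15.1 ± 3.55 (SD over 4 NT embryo samples, each against the fibroblast mean of its strain). In NT embryos these classes ended at 63.4 ± 5.14%, 64.1 ± 6.21% and 51.5 ± 8.58% from the highest class to the lowest. Runs whose spacing recurred did not show this order, which was not tested, with -9.63 points in the highest class and -10.7 points in the lowest.

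**Figure D2:**
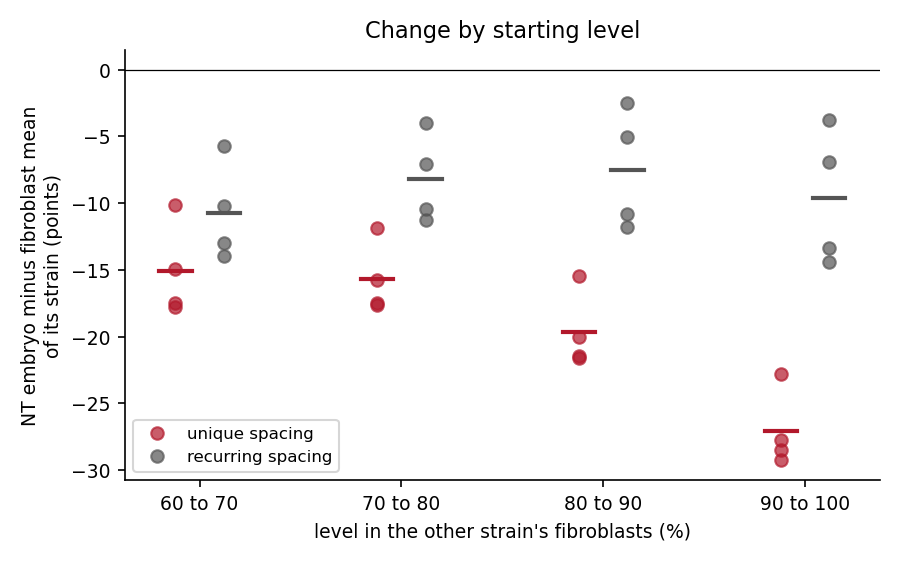
Change in level (NT embryo sample minus the fibroblast mean of its strain, percentage points) by starting class in the fibroblasts of the other strain (percent), with points for each of the 4 NT embryo samples, for runs of unique spacing and for autosomal runs of recurring spacing. Unique runs lie lower, at a mean of -15.1 points in the lowest class and -27.1 points in the highest, against -10.7 and -9.63 points for recurring runs.

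On average, the loss in runs of unique spacing exceeded that in methylated autosomal runs whose spacing occurred 2 times or more, also once starting levels were matched. After recurring runs were weighted to the starting classes of the unique runs, unique minus recurring was -12.3 ± 1.30 points in NT embryos and -1.41 ± 2.07 points in fibroblasts (SD, n = 4 each). The difference between these values was -10.9 points, with p = 0.0286 by the two-sided exact permutation test, the smallest possible. It was -11.7 points in X1 samples and -10.02 in BDF1-CAST ones. In the sets chosen by the mean of all fibroblasts, 56.4% of unique runs kept methylation, against 93.2% of 51956 recurring runs, and 1.13% lost it, against 0.214%. These shares are not matched for starting level. Fibroblast means were 81.3% in the unique runs and 85.6% in the recurring ones. Unique and recurring runs had like call numbers, with medians of 44 to 63 and 51 to 69 per NT embryo sample. Unique runs had fewer CpGs around them, a median of 10 within 500 bp, against 19. How the authors placed reads that match several places is not given in the sources used here, and its part in the levels of recurring runs was not tested.

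Up to the class of 10 to 99 occurrences, the change was smaller where a spacing was more common. It was -19.6 ± 3.56 points where a spacing occurred once, -15.8 ± 3.91 where it occurred 2 times, -11.1 ± 3.80 at 3 to 9 times and -7.56 ± 3.74 at 10 to 99 times. Above that it was -7.82 ± 4.89 points at 100 to 999 times and -6.27 ± 5.35 at 1000 times or more. These steps, and the one into the class of 10 to 99 times, were smaller than the SD over 4 NT embryo samples. Starting levels were not matched here, with fibroblast means of 80.8% at 1 occurrence and 87.9% at 1000 or more. Single recurring spacings differed among themselves. For 3 of them, chosen with earlier results of these data known, the change was -16.6 ± 11.1 points for gaps of 21, 12, 45 and 25 bp, -0.73 ± 2.49 for 7, 5, 4 and 29 bp and 0.36 ± 2.87 for 8, 2, 16 and 8 bp. The first of these changed by -7.30 points in X1 and by -25.9 in BDF1-CAST, where unique runs changed by -22.2, so a loss of this size was not limited to unique spacing. Runs whose spacing occurred 2 times lay nearer to unique runs than to the commonest ones.

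**Figure D3:**
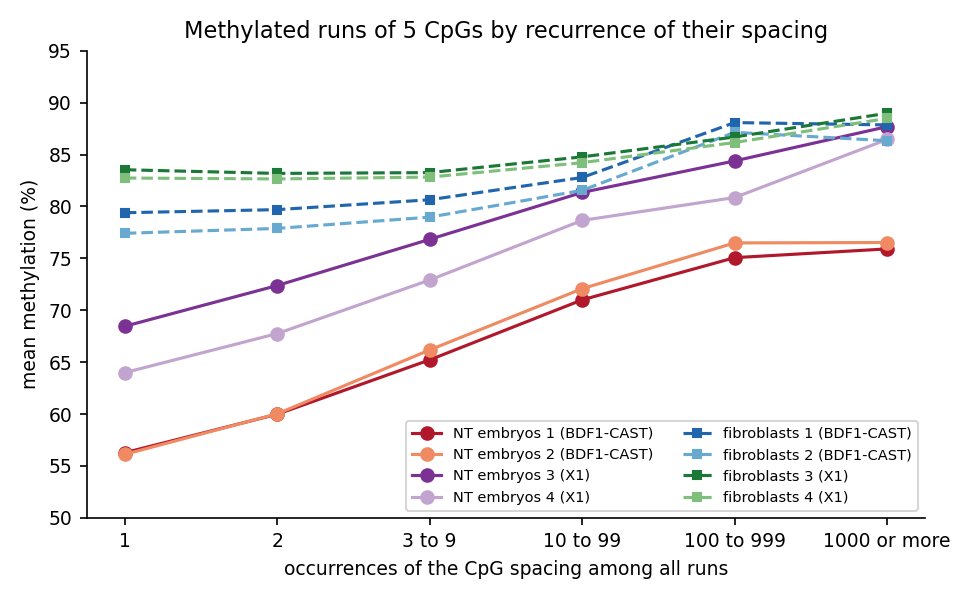
Mean methylation level (percent) of methylated autosomal runs by the number of times their spacing occurred (classes on the horizontal axis), with a line and points for each NT embryo sample and each fibroblast sample. NT embryo levels climb from a mean of 61.2% at 1 occurrence to 81.6% at 1000 or more, while fibroblast means lie at 80.8% and 87.9% in the same classes.

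Within the unique runs, closely packed CpGs lost a little more than widely spread ones. Runs of 66 bp or less from first to last CpG minus those of 98 bp or more stood at -2.46 ± 1.76 points in NT embryos and 1.65 ± 0.406 points in fibroblasts (SD, n = 4 each). The difference was -4.12 points, with p = 0.0286 by the two-sided exact permutation test. It was -2.98 points in X1 and -5.26 in BDF1-CAST, and with each run weighted by its calls it was -2.26 points with p = 0.0857 by the same exact test. Surroundings went the other way. Runs with 15 or more CpGs within 500 bp minus those with 7 or fewer stood at 6.0 ± 0.408 points in NT embryos and 1.07 ± 0.323 points in fibroblasts, a difference of 4.94 points with p = 0.0286 by the exact test. It was 5.25 points in X1 and 4.62 in BDF1-CAST, so unique runs among many measured CpGs kept more of their methylation in both strains.

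Loss was seen on every autosome, but to different degrees. With runs chosen by the other strain's fibroblasts, the change ran from -26.2 ± 4.93 points on chromosome 11 and -24.6 ± 3.74 on chromosome 19 to -14.3 ± 4.41 on chromosome 6, -14.3 ± 3.11 on chromosome 1 and -14.1 ± 3.04 on chromosome 13 (SD over 4 NT embryo samples). On chromosome 11, 38.6% of 764 members kept methylation and 16 lost it. On chromosome 13, 72.0% of 478 members kept methylation and 0 lost it, while on chromosome 14 there were 14 lost members among 412. These orders among chromosomes are descriptions and were not tested.

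Which runs kept and which lost methylation was partly shared between strains, as seen when the NT embryos of 1 strain class the regions and those of the other are measured. Each of the 6406 regions was represented by its best covered run. In the 260 regions under 20% in BDF1-CAST NT embryos, X1 NT embryos averaged 45.6%, against 79.0% in X1 fibroblasts. In the 723 regions at 80% or more in BDF1-CAST NT embryos, X1 NT embryos averaged 84.5%, against 87.2% in X1 fibroblasts. The X1 change was thus -33.4 points in the lowest of these classes and -2.75 points in the highest. In the reverse direction, BDF1-CAST NT embryos averaged 36.0% in the 165 regions under 20% in X1 NT embryos, against 75.7% in BDF1-CAST fibroblasts, and 70.3% in the 1848 regions at 80% or more, against 81.7% in those fibroblasts. Of the 260 regions in the lowest BDF1-CAST class, 25% were at 60% or more in X1 NT embryos. The median number of calls in X1 NT embryos was 39.5 in that class, against 63 in the highest. Regions picked as the lowest in a few samples tend to lie higher in others through counting error. The part of this in the levels of the other strain was not tested.

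**Figure D4:**
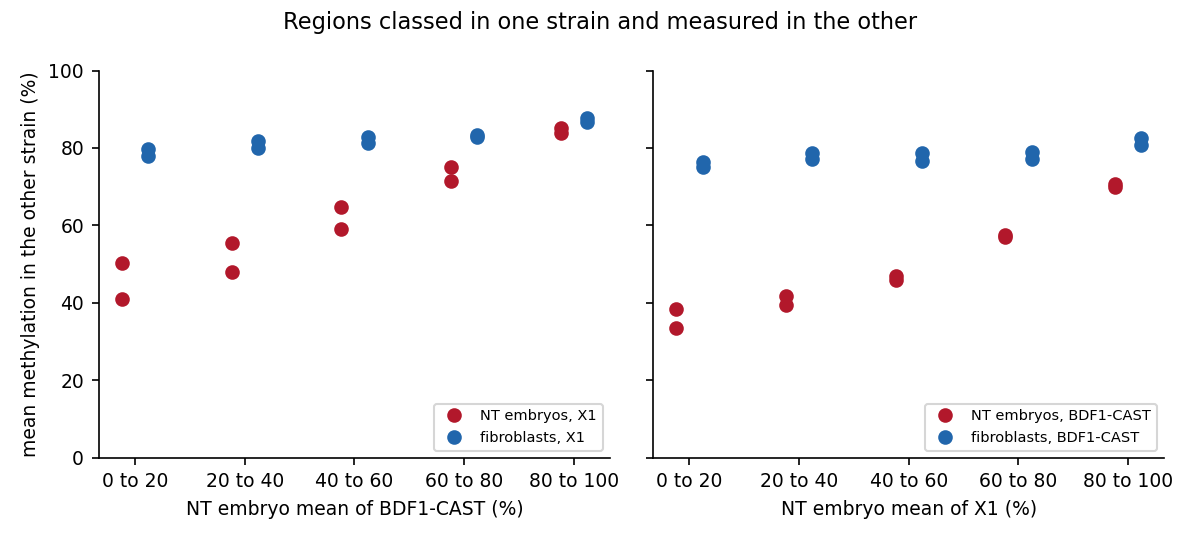
Mean level (percent) in the NT embryo samples and the fibroblast samples of 1 strain, by the class of the region's level in the NT embryos of the other strain (percent, horizontal axis), in both directions, with a point for each sample. X1 NT embryos climb from 45.6% to 84.5% over the classes set by BDF1-CAST NT embryos, while X1 fibroblasts climb from 79.0% to 87.2%.

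Correlations over the 6406 regions, which share libraries and depth and are given as descriptions, ordered the samples likewise. Pairs of NT embryo samples of the same strain correlated at r = 0.477 and 0.535, and pairs of different strain at 0.398 to 0.436. Fibroblast pairs of the same strain correlated at 0.736 and 0.810, and of different strain at 0.566 to 0.666. Between NT embryo and fibroblast samples r was 0.110 to 0.237 over regions whose fibroblast range the choice at 60% or more had narrowed. Nearby regions, which can share sequenced fragments, were alike. Neighbours under 300 bp apart (243 pairs) correlated at r = 0.671 in the NT embryo mean and 0.563 in the fibroblast mean, and those at 300 to 1000 bp (192 pairs) at 0.608 and 0.392. From 1000 to 10000 bp (515 pairs) the values were 0.390 in NT embryos and 0.116 in fibroblasts.

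Single runs were tested by a quasi-binomial model of their calls that held stage and strain, fitted over all 439159 runs. A call required 20 points or more between stage means and an adjusted p under 0.05. In all, 1609 of 11890 members (13.5%) in 1000 regions were called lower in NT embryos and 0 were called higher. Over all runs 0.648% were called in either direction and 0.631% lower, and nothing is read from the contrast because fibroblast levels chose the members. At an unadjusted p under 0.05, without a minimum difference, 7072 members (59.5%) passed, against 16.9% of all runs. The called members had a median NT embryo level of 43.1% and a median fibroblast level of 88.7%, and 84 of them had an NT embryo mean under 20%. The count depended on which samples entered. It was 0 when NT embryo sample 1 or 2 was left out, 0 when any fibroblast sample was, and 1078 without NT embryo sample 3 and 1043 without NT embryo sample 4. The count was 757 of the 6489 members left when gaps were limited to 40 bp, against 0.409% of all runs. With the resequenced fibroblast library left out it was 999 of 11910, against 0.382% of all runs.

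The 8 named falls are the regions with the largest change among 628 called lower with 20 calls or more in each sample. On chromosome 7, the run at chr7:134158919-134158970 had 22.2%, 20.6%, 15% and 0% in NT embryo samples 1 to 4, against 89.0%, 91.7%, 97.2% and 96.7% in fibroblast samples 1 to 4. The 0% of sample 4 allows a level of up to 11.5%, taken as 3 methylated calls out of its number of calls. This bound and the like ones below treat calls as independent. Calls on the same read are not, so the bounds can be too low. The groups lay far apart, and the mean difference was -79.2 points (adjusted p = 0.0156, quasi-binomial model). At chr10:44877950-44878066 the levels were 13.6%, 32.6%, 18.8% and 10.8% in NT embryo samples 1 to 4, against 90.7%, 88.3%, 95% and 92.9% in fibroblast samples 1 to 4. All 4 runs of that region were called. At chr2:168057150-168057229 NT embryo samples 1 to 4 had 16.5%, 0%, 10.5% and 3.13%, against 73.9%, 76.0%, 80.5% and 77.6% in fibroblast samples 1 to 4. The 0% there allows up to 2.27%. This region joined 8 runs over 12 CpGs, 5 of the runs called and with NT embryo means of up to 45.7%, and lay among 49 CpGs within 500 bp, many more than the median of 10.

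Loss in a named region was not always even over the samples. At chr7:87500577-87500619 NT embryo samples 1 to 4 had 10.0%, 0%, 49.5% and 5.13%, against 91.1%, 88.0%, 93.9% and 96.4% in fibroblast samples 1 to 4, so sample 3 stood above the others. The 0% allows up to 4.84%. At chr12:112563081-112563133 they had 45.7%, 5.26%, 29.8% and 0%, against 86.3%, 95.2%, 93.4% and 92.5% in fibroblast samples 1 to 4, and here sample 1 was highest, while the 0% allows up to 7.50%. The remaining 3, on chromosomes 13, 11 and 5, had NT embryo levels of 2.82 to 37.5% and fibroblast levels of 80.9 to 95.4%. In each of the 8 regions every NT embryo sample lay below every fibroblast sample.

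Among 165 regions at 80% or more in each of the 8 samples with 20 calls or more, the 8 with the most CpGs are named as kept. The region at chr9:35431585-35431718 had 94.2%, 93.0%, 90% and 90.3% in NT embryo samples 1 to 4, against 90.4%, 88.7%, 93.1% and 85.2% in fibroblast samples 1 to 4. These ranges overlapped. At chr19:9828391-9828478, covered by 407 to 700 calls per NT embryo sample and 205 to 308 per fibroblast sample, the levels were 81.0%, 84.0%, 90.4% and 86.8% in NT embryo samples 1 to 4, against 87.3%, 85.3%, 90.4% and 89.6% in fibroblast samples 1 to 4. The 10 CpGs joined in that region lay among 36 CpGs within 500 bp, above the median of 10 as in the region on chromosome 2 that lost methylation. Each named region is given by 1 run, and other runs joined in these regions had lower NT embryo means, down to 69.6% in the region on chromosome 9 and 63.4% in that on chromosome 19. The other 6 kept regions, on chromosomes 2, 4, 6 and 15, had NT embryo levels of 86.3 to 100% and fibroblast levels of 83.6 to 100% in the named run, and their lowest NT embryo mean in any run was 77.3%.

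None of the rises was called, and the choice of runs at 60% or more in fibroblasts limited the room for them. Among 721 regions with a higher NT embryo mean and 20 calls or more in each sample, the 4 largest differences were at chr8:118787565-118787623, chr13:57545762-57545847, chr19:13434904-13435019 and chr1:35530332-35530440, at 22.8, 19.5, 18.3 and 17.2 points and adjusted p from 0.0846 to 0.154 in the quasi-binomial model. The first had 84.1%, 74.4%, 91.2% and 97.2% in NT embryo samples 1 to 4, against 62.9%, 59.5%, 66.7% and 66.7% in fibroblast samples 1 to 4. Its groups did not overlap. The threshold of 60% cut through a continuum, with chr4:139608452 just inside at a fibroblast mean of 60.0006% and an NT embryo mean of 53.5%, and chr14:47971371 just outside at a fibroblast mean of 59.9967% and an NT embryo mean of 44.9%.

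Few promoters matched to unique spacing were methylated, and 3 of the 18 methylated regions were called lower in NT embryos. Of 5910 autosomal runs matched to a RefSeq promoter, 5817 (98.4%) were under 20% in fibroblasts, 55 were at 20% to under 60% and 38 were members. All 18 regions formed by these 38 had a lower mean in NT embryos, with a median difference of -22.4 points, and 7 of them had every NT embryo sample below every fibroblast sample. NT embryo means were 60% or more in 7 regions, under 60% in 11 and under 20% in 0. Adjusted p ran from 0.0149 to 0.732 in the quasi-binomial model, 3 of the 18 were called lower, and 13 had an unadjusted p under 0.05. Over all members the shares were 13.5% called and 59.5% with an unadjusted p under 0.05, and over all runs 0.648% and 16.9%. Every NT embryo sample lay below every fibroblast sample in 34.8% of all members and 5.6% of all runs. The NT embryo mean lay above the fibroblast mean in only 12.1% of all members, so nothing particular to promoters is read from these counts.

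The promoters of 3 predicted genes were called lower. Gm51661 had 34.8%, 40.5%, 40% and 36.4% in NT embryo samples 1 to 4, against 95.2%, 96.4%, 96.0% and 94.7% in fibroblast samples 1 to 4, a difference of -57.7 points (adjusted p = 0.0149, quasi-binomial model). Its sequence, printed above, carries 5 CpGs in 64 bases, and the levels agree closely within each group although the NT embryo samples held only 11 to 42 calls. Gm13748 differed by -46.3 points (adjusted p = 0.0338) and Gm51454 by -29.9 points (adjusted p = 0.0304), with 10 to 38 and 14 to 88 calls per NT embryo sample. No role is given for these genes.

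Genes of the germ line, many of which are silenced by promoter methylation in somatic cells, were among the matched promoters. Hormad1 encodes a protein of the meiotic chromosome axis. Its run had 58.3%, 71.9%, 60% and 45.8% in NT embryo samples 1 to 4, against 70.7%, 81.2%, 87.8% and 79.3% in fibroblast samples 1 to 4, ranges that overlapped slightly (-20.8 points, adjusted p = 0.202, quasi-binomial model). Dmrtb1, a transcription factor of spermatogenic cells, had 2 regions. The far one, printed above, had 38.8%, 54.2%, 89.5% and 56.8% in NT embryo samples 1 to 4, against 78.3%, 77.2%, 94.4% and 93.6% in fibroblast samples 1 to 4 (-26.1 points, adjusted p = 0.116, same model). There NT embryo sample 3, of X1, lay above both BDF1-CAST fibroblast samples but below both X1 ones. Rpl39l, a ribosomal protein gene used in testis, had 73.1%, 50%, 100% and 69.2% in NT embryo samples 1 to 4, against 81.7%, 87.8%, 89.2% and 88.9% in fibroblast samples 1 to 4 (-13.8 points, adjusted p = 0.325). None of these 3 genes passed the test, and each had NT embryo samples both well below and close to the fibroblasts.

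The other named promoters varied as widely. Lep, which encodes the fat-cell hormone leptin, had 45.3%, 61.5%, 54.9% and 28.8% in NT embryo samples 1 to 4, against 78.2%, 56.4%, 62.2% and 72.2% in fibroblast samples 1 to 4 (-19.6 points, adjusted p = 0.295, quasi-binomial model). These levels belong to a run with gaps of 10, 50, 38 and 5 bp that extends past the start of the gene. The Lep sequence printed above stops before the start, so it holds only part of that run, with CpGs of neighbouring runs. Plekhg4, a guanine nucleotide exchange factor, had 8.33%, 44.2%, 95.2% and 10.0% in NT embryo samples 1 to 4, against 84.2%, 84.8%, 81.0% and 85.1% in fibroblast samples 1 to 4 (-44.3 points, adjusted p = 0.223). NT embryo sample 3 lay above all fibroblast samples there and sample 1 near the bottom of the scale, at 24 to 77 calls per NT embryo sample. Timm8a2, a homologue of a mitochondrial import chaperone, differed by -31.7 points with no overlap between groups and an adjusted p of 0.0537. The remaining 9 promoters, those of Crygn, Naa11, Prr23a2, Gm6566, S100z, Gm52186, Gm52172 and Muc20 and the nearer Dmrtb1 region, differed by -32.5 to -3.12 points without passing the test.

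**Figure D5:**
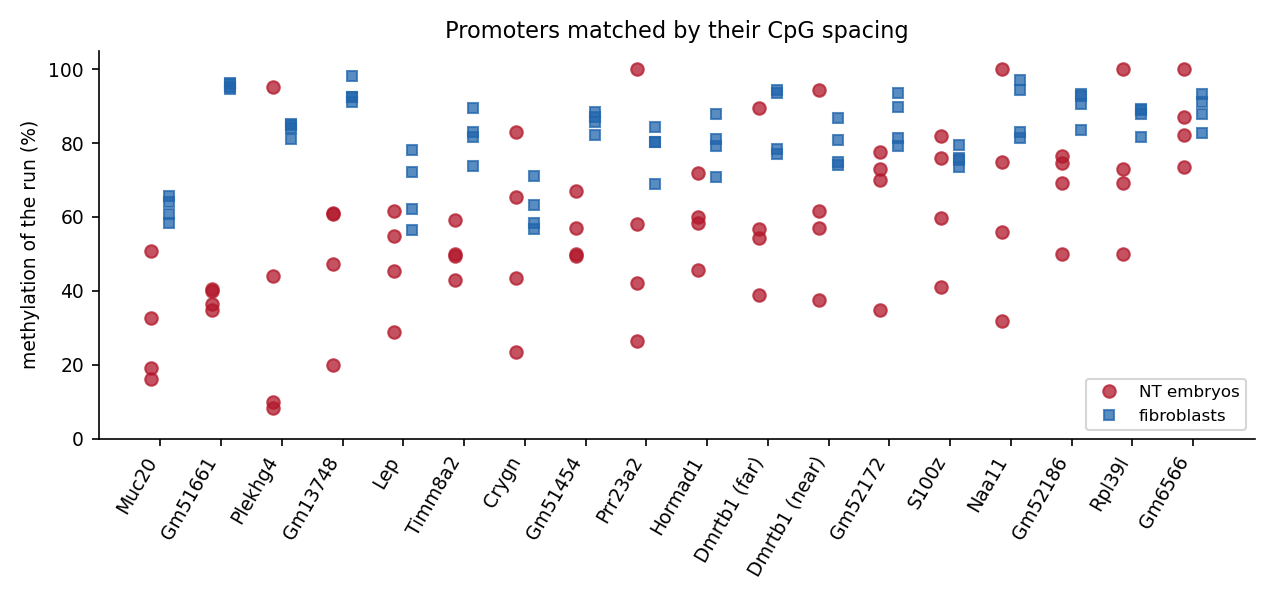
Methylation level (percent, vertical axis) of the 18 promoter regions matched to RefSeq, 1 per column, with points for each NT embryo sample and, beside them, each fibroblast sample. NT embryo points scatter widely in most columns, for Plekhg4 over 8.33 to 95.2%, and gather between 34.8 and 40.5% for Gm51661.

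The strains stood apart in the average over runs, a difference that was not tested, but single runs did not pass the test. NT embryos of X1 averaged 68.6% and 64.0% over the 11890 runs, against 56.9% and 56.7% in those of BDF1-CAST, and X1 fibroblasts averaged 83.7% and 82.7%, against 80.4% and 78.5% in BDF1-CAST. Both X1 NT embryo samples were above both BDF1-CAST ones. Runs with both BDF1-CAST NT embryo samples under 60% and both X1 ones at 60% or more numbered 1141, against 168 of the reverse kind. The strain term of the model called 0 members, against 0.00729% of all runs, and 2739 members (23.0%) had an unadjusted p under 0.05, against 15.6% of all runs. A fit of transformed levels with limma called 50 members, 46 higher and 4 lower in X1, against 0.0918% of all runs. Whether the stage change of a run differed between strains was tested with a product term, which called 0 members and 0% of all runs, at 1596 members (13.4%) with an unadjusted p under 0.05, against 6.29% of all runs. Strain and the lower number of CpGs covered in X1 libraries cannot be told apart.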

How the data were processed

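Reduced representation bisulfite libraries from 4 NT embryo and 4 fibroblast samples were used. For each library the authors deposited counts of calls and of methylated calls per CpG, on mm9, the build in the submitters' processing notes. No source used here gives an aligner, a caller or a filter. Fibroblast libraries 1 and 1a, of which 1a is a resequencing per the deposited description, were summed, which gave 8 samples from 9 libraries. A table of tile fractions was not used.

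CpGs with at least 5 calls in 5 or more libraries (1342457 of 2200192) were joined into runs of 5 with gaps of 60 bp or less, and runs with 10 calls in each sample were kept. A level is the percentage of methylated calls of a run in a sample. Calls were fitted per run with a quasi-binomial logistic model of stage and strain. The dispersion, at least 1, was moderated in R 4.3.3 by the squeezeVar function (limma 3.58.1), and F tests were adjusted by Benjamini-Hochberg over 439159 runs. Calls needed 20 points and an adjusted p under 0.05. The model was also run on simulated data, with 1 setting of the spread between samples chosen by hand for both stages. The measured spread differed, with a median SD of 14.4 points in NT embryos and 4.77 in fibroblasts, so no support for the calls is drawn from that run. Means over runs were compared by two-sided exact permutation. Other steps used Python 3.11.15, numpy 2.4.6, pandas 2.3.3 and scipy 1.17.1.

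Named regions are represented by the run with the most calls in its least covered sample. They are the 8 largest called falls, the 8 regions with the most CpGs at 80% or more in every sample, the 4 largest rises, strain calls (0 found) and the members nearest to 60%. All matched promoters are given, and that match was added after the data had been seen. Members on chromosome 18 (329) were counted and not named. Alternatives changed the call minimum, gap, level, minimum difference, weighting, model, covariates, replicate block, library 1a, recurring set and samples. The members and lists were chosen with earlier results of these data known.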

Additional observations from a re-analysis of the deposited data

Results flagged for a closer look

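In the kept region at chr15:76005243 fibroblast sample 4 stood at 100%, apart from fibroblast samples 1 to 3 at 97.0 to 97.5%. It was the 1 sample that stood apart among 162 groups of 4 examined, where chance gives about 1 in 20 groups. In the same region the NT embryo samples moved opposite ways by strain, by 0.804 points in X1 and -8.61 points in BDF1-CAST, so that the X1 change exceeded the other by 9.41 points. The run at chr5:137354463, just under the threshold of 60%, changed by 7.36 points in X1 and -19.8 points in BDF1-CAST, a gap of 27.2 points. These 2 were the cases found among 81 pairs of strain changes, and neither difference was tested.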

How the results depend on the processing

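No single alternative run here turned the direction of a stage difference. Whether samples of the same number are paired is not given in the sources used here. Deviations of same-numbered NT embryo and fibroblast samples correlated at 0.0668, 0.0718, 0.134 and 0.0597 for numbers 1 to 4. Only number 3 was matched best by its own number. Such small values cannot decide whether the samples are paired. With the replicate block, as a sign-flip test over 4 pairs, p was 0.125, the smallest possible, for the stage difference (-19.6 points), unique minus recurring (-10.9), narrow minus wide (-4.12) and dense minus sparse (4.94), and the model with the block in place of strain called 0 members, with 5951 at an unadjusted p under 0.05. Without any 1 sample these values ran from -22.2 to -17.9, from -11.5 to -10.1, from -5.12 to -3.72 and from 4.84 to 5.47 points, with p = 0.0571 each, the smallest exact p for 4 against 3. Members called between stages then numbered 0 to 1078, with 5550 to 6541 at an unadjusted p under 0.05 where 0 were called, and those called for strain or its product with stage 0. Narrow minus wide was -2.26 points when weighted by calls (p = 0.0857, exact test). Stage calls numbered 757 of 6489 members with gaps of 40 bp or less, where fewer runs qualify, against 0.409% of all runs. Without library 1a they numbered 999 of 11910, against 0.382% of all runs. Strain calls numbered 50 with limma, 1 at a difference of 10 points and 1 with 20 calls per sample. The shares of all runs were 0.0918%, 0.0102% and 0.00909% in the same order. Apart from the smaller set at 40 bp, the causes were not tested. Unique minus recurring stayed at -10.7 points with span matched and -10.5 with surroundings matched, both chosen after seeing the data. The comparison by gene location was not run, for want of an annotation of build mm9. The number of calls limits the precision of a single run's level, at least by the intervals given above, which treat calls as independent.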
